A study of Homo sapiens with 24 samples.

Results

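Peaks on the mitochondrial genome were taken from 6 lists of m6A peaks made by m6A-seq during pancreatic differentiation of human pluripotent stem cells. In m6A-seq, an antibody against N6-methyladenosine pulls down RNA fragments (IP), which are sequenced next to fragments set aside before the pulldown (input). A peak is a stretch where IP reads exceed what the input predicts. All peaks on chromosome M were kept, and their gene IDs were matched to the 37 genes that GENCODE release 44 annotates there, 13 for mRNAs, 2 for rRNAs and 22 for tRNAs. This gave 132 peaks of 228472 in all, and all 22 gene IDs of these peaks matched a mitochondrial symbol. hPSC had 22 peaks, definitive endoderm (DE) 21, pancreatic progenitors (PP) 16, human islet-like organoids (hILO) 24, unedited PP of a separate batch (WT PP) 25 and ALKBH5 knockout PP (A5-KO PP) 24. These were 0.06%, 0.0643%, 0.055%, 0.0761%, 0.0577% and 0.0435% of the peaks of their lists.

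All 24 libraries came from MEL1 INSGFP/W, an established human embryonic stem cell line with a GFP reporter at the insulin gene (MEL1 in the labels), with 2 IP and 2 input libraries for each population. Undifferentiated hPSC were grown on CF1 feeder cells with bFGF. DE was made with activin A, joined at first by a Wnt signaling activator. PP was made with KGF, then KGF with retinoic acid, then EGF, among other additives. hILO was made as suspended aggregates in R6 and then R7 medium, both with zinc sulfate, heparin and T3. WT PP and A5-KO PP were brought to the PP stage by the same steps. The latter came from cells whose ALKBH5 gene, which encodes an m6A demethylase, had been cut in its first exon with CRISPR-Cpf1. The study describes 2 knockout lines, A5-KO and A5-KO2, and the labels of these libraries name A5-KO. Whether all of them came from that line alone was not stated outright in the sources used here. The first 4 populations formed one batch, with mRNA selected from total RNA and a SYSY antibody. WT PP and A5-KO PP formed another, with total RNA, a Millipore antibody, a stranded total RNA kit and rRNA removed from the input fragments. ALKBH5 was listed with 289 input and 836 IP reads in 4 peaks in WT PP, and with 1 input and 592 IP reads in 5 peaks in A5-KO PP. These IP reads were 0.00139% and 0.00153% of all IP reads in peaks. The targeted gene's share of IP reads was thus not lower in A5-KO PP, while its input reads were, and the reason was not tested. Of each stage's own markers, 4 of 5 had a peak for hPSC, 6 of 6 for DE, 5 of 6 for PP and 6 of 6 for hILO, and WT PP and A5-KO PP had peaks on 6 of 6 PP markers. Markers of other stages had peaks too: DE on the same 4 of 5 hPSC markers, hILO on 5 of 6 PP markers, and WT PP and A5-KO PP on 5 of 6 DE markers each.

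The authors called each list on pooled libraries, so every population has 1 value per peak, no value has a replicate check, and no test across populations was made. Intervals and counting errors cover the counting of reads only. The lists hold 6987612 to 28463998 input reads and 30723097 to 79822815 IP reads in all peaks together.

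The mitochondrial genome is a small circle that is copied into RNA from both strands as long precursors. The precursors are cut mostly at the tRNAs that lie between the other genes, which releases mRNAs without introns, 2 rRNAs and the tRNAs. The mRNAs encode membrane subunits of respiratory complexes I, III and IV and of the ATP synthase, and most carry a short poly(A) tail. Most genes are read as the plus strand of the reference, and MT-ND6 and 8 tRNA genes as the minus strand. These RNAs carry several known modified bases on rRNAs and tRNAs, while the main m6A writer of cellular mRNA, the METTL3 complex, acts in the nucleus.

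The sequences below are those that the results turn on most. They were read from the reference genome (GRCh38, chromosome M, strand of the gene, 5′ to 3′), and capitals mark DRACH, the letters around most m6A in nuclear mRNA: A, G or T, then A or G, then AC, then A, C or T. The first 4 lie in a peak in all 6 lists, the fifth held the largest number of IP reads in DE and in PP, and the last 5 are whole tRNA genes that formed peaks. The study's methods give a threshold of p below 1e-05 for peaks. By it, none of the first 4 lies in a peak in every list.
MT-RNR1, chrM:648-697, plus strand: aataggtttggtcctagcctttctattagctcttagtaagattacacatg
MT-ATP6, chrM:8666-8765, plus strand: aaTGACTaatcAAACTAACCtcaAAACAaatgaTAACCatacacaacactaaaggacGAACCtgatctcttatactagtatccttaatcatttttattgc
MT-ND4, chrM:11020-11119, plus strand: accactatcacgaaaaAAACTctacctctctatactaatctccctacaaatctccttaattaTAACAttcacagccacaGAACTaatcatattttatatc
MT-ND5, chrM:12387-12511, plus strand: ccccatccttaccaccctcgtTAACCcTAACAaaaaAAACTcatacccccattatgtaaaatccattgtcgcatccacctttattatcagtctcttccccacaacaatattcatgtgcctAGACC
MT-ND2, chrM:4645-4819, plus strand: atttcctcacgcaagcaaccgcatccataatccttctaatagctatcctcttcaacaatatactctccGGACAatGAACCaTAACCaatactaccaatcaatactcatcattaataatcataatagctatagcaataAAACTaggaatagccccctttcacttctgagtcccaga
MT-TP, chrM:15956-16023, minus strand: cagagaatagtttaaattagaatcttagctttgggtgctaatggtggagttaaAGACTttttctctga
MT-TF, chrM:577-647, plus strand: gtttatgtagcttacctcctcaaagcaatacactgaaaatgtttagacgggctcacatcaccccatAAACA
MT-TE, chrM:14674-14742, minus strand: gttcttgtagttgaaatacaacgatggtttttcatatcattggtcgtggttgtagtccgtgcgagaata
MT-TQ, chrM:4329-4400, minus strand: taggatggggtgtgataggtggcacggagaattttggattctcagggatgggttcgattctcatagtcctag
MT-TW, chrM:5512-5579, plus strand: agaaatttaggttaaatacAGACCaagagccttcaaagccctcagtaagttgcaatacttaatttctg
The stretch of MT-RNR1 that every list shared holds no DRACH, nor do MT-TQ and MT-TE. The shared stretches of MT-ATP6, MT-ND4 and MT-ND5 hold 6, 3 and 4 sites, and the MT-ND2 peak holds 4, counting sites whose letters all lie inside. The densities of sites given further on count a site by its A alone, by which the MT-ND4 stretch holds 4.

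Peaks lay on 23 of the 37 genes. Of the 132 peaks, 105 lay mainly on mRNA genes, 11 on rRNA genes and 16 on tRNA genes. All 13 mRNA genes had bases in a peak of at least 3 lists, and 7 of them (MT-ND2, MT-CO2, MT-ATP8, MT-ATP6, MT-ND3, MT-ND4 and MT-ND5) in all 6. MT-ND4L and MT-CYB did so in 5 lists, MT-ND1, MT-CO3 and MT-ND6 in 4, and MT-CO1 in 3. These counts take all listed peaks, and 41 of the 132 did not have a p below 1e-05. Without those 41, MT-ND2, MT-CO2, MT-ATP8 and MT-ND5 no longer had a peak in every list. MT-ND1 then had one only in hPSC and DE, and MT-CO1 only in WT PP and A5-KO PP. The genes with peaks recurred more than the positions did. At least 1 list had a peak over 12003 nt of the genome and all 6 lists over 725 nt, or 6.04% of those.

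**Figure D1:**
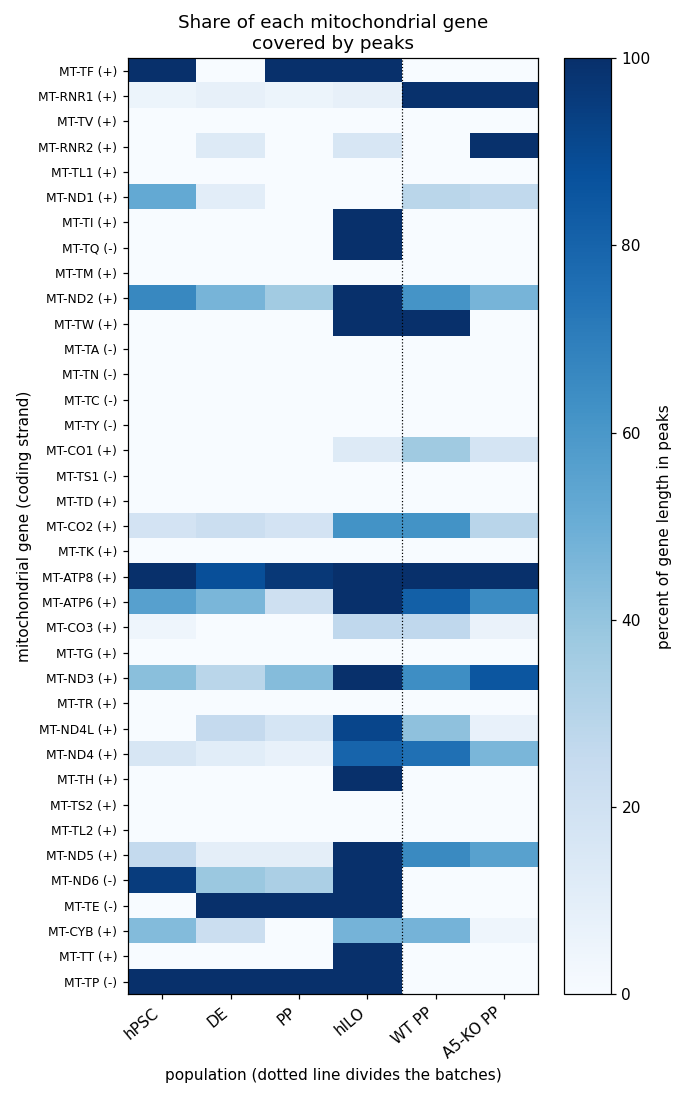
Share of the length of each of the 37 mitochondrial genes (rows, in genome order, with the strand that encodes them) that lies in peaks of each population (columns), from 0 to 100 percent. MT-ATP8 is covered over at least 87.9% in all 6 lists, and MT-ND6 is empty in WT PP and A5-KO PP. Of the 22 tRNA rows, 14 are empty throughout. hILO fills 8, PP 3, hPSC and DE 2 each, WT PP 1 (MT-TW) and A5-KO PP none.

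The 7 genes for subunits of complex I, the NADH dehydrogenase that passes electrons from NADH to ubiquinone, held 67 of the 105 mRNA peaks (63.8%) on 55.8% of the mRNA length. MT-ND2 had 16 peaks. Its 175 nt peak at chrM:4645-4819 had the same borders in DE and PP, with 21359 input and 65665 IP reads in DE and 8239 and 37523 in PP. The log2 enrichment, the log2 ratio of IP to input as the authors' caller estimated it, was 2.26 in DE and 2.17 in PP, a difference of −0.09 with a counting error of 0.021. In hPSC the peak started at the same base and ended at 4944, and it had 7 input and 128 IP reads at a log2 enrichment of 2.37. Enrichment in the 3 lists thus lay between 2.17 and 2.37 while the reads behind it differed widely. In hILO a single peak covered the whole gene with 257 input and 946 IP reads (log2 enrichment 2.06). In WT PP the gene's strongest peak was chrM:4745-5169, with 817 input and 5939 IP reads and a log2 enrichment of 5.64. A5-KO PP had 2 peaks inside it and 1 farther along the gene, all with no input read and with 80, 67 and 25 IP reads. Their log2 enrichments were listed as 10.76, 10.3 and 0.68.

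MT-ND4, together with MT-ND4L with which it overlaps on 1 mRNA, carried the mitochondrial peaks with the most reads in the second batch. In WT PP, chrM:11520-11694 had 30618 input and 28567 IP reads and a log2 enrichment of 2.36. The next peak, chrM:11745-11919, had 44882 input and 13362 IP reads and a log2 enrichment of 0.74. Another peak on this gene in WT PP, chrM:10720-11444, had only 126 input and 161 IP reads. In A5-KO PP the peak at that place, chrM:10745-11394, had 17103 input and 9669 IP reads. Read numbers of MT-ND4 peaks thus differed widely along the gene in WT PP and at matching positions between the genotypes. In the first batch MT-ND4 peaks held 23 to 302 input reads, and the 100 nt at chrM:11020-11119 formed a peak of its own in DE (23 input, 83 IP reads, log2 enrichment 2.11) and in PP (176 and 1360, 2.66). MT-ND4L had peaks of its own in DE, PP, hILO and WT PP, with 52 to 549 input reads and log2 enrichments of 1.17, 2.22, 1.34 and 3.24.

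MT-ND5 had 16 peaks, and in 5 lists, all but WT PP, a peak began at its first nucleotide. That peak ended within 200 nt in hPSC, DE and PP, after 300 nt in A5-KO PP and at the end of the gene, after 1812 nt, in hILO. Its reads were 6094 input and 72693 IP for hPSC, 119 and 180 for DE, 56 and 142 for PP, 725 and 2601 for hILO, and 119 and 264 for A5-KO PP. The log2 enrichment was 2.14, 1.04, 1.01, 2.01 and 3.43 in that order, so DE and PP were the lowest. The 2 lists of the second batch had 4 and 6 peaks along MT-ND5, and chrM:13137-13236 formed the same peak in both, with 1080 input and 7698 IP reads in WT PP and 52 and 97 in A5-KO PP.

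MT-ND1 had 4 hPSC peaks, 1 DE peak, none in PP or hILO, and 1 peak each for WT PP and A5-KO PP. The 50 nt peak chrM:3832-3881 had 6319 input and 77303 IP reads in hPSC and thus the most IP reads of any mitochondrial peak, and the other lists had no peak there. The peak chrM:3307-3381 at the start of the gene had 4824 input and 39984 IP reads in hPSC, and a peak at the same start in DE had 74 and 264. The last part of MT-ND1 was shared by hPSC, WT PP and A5-KO PP, with 458, 74 and 191 input reads. MT-ND3 started with a peak at its first nucleotide in DE, PP, hILO and A5-KO PP, with 40 input reads in PP, 87 in DE, 231 in hILO and 16 in A5-KO PP. PP and A5-KO PP had identical borders there, chrM:10059-10208, with log2 enrichments of 2.22 and 5.95.

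MT-ND6 is the only mRNA gene on the minus strand. It had peaks in all 4 lists of the first batch and none in the second. The peak at its first nucleotide had 14 input and 145 IP reads for hPSC, 12 and 102 for DE, 708 and 3958 for PP, and 111 and 294 for hILO, where it covered the whole gene. The log2 enrichments were 1.75, 3.50, 2.50 and 1.57, and the value of DE rested on the fewest reads.

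**Figure D2:**
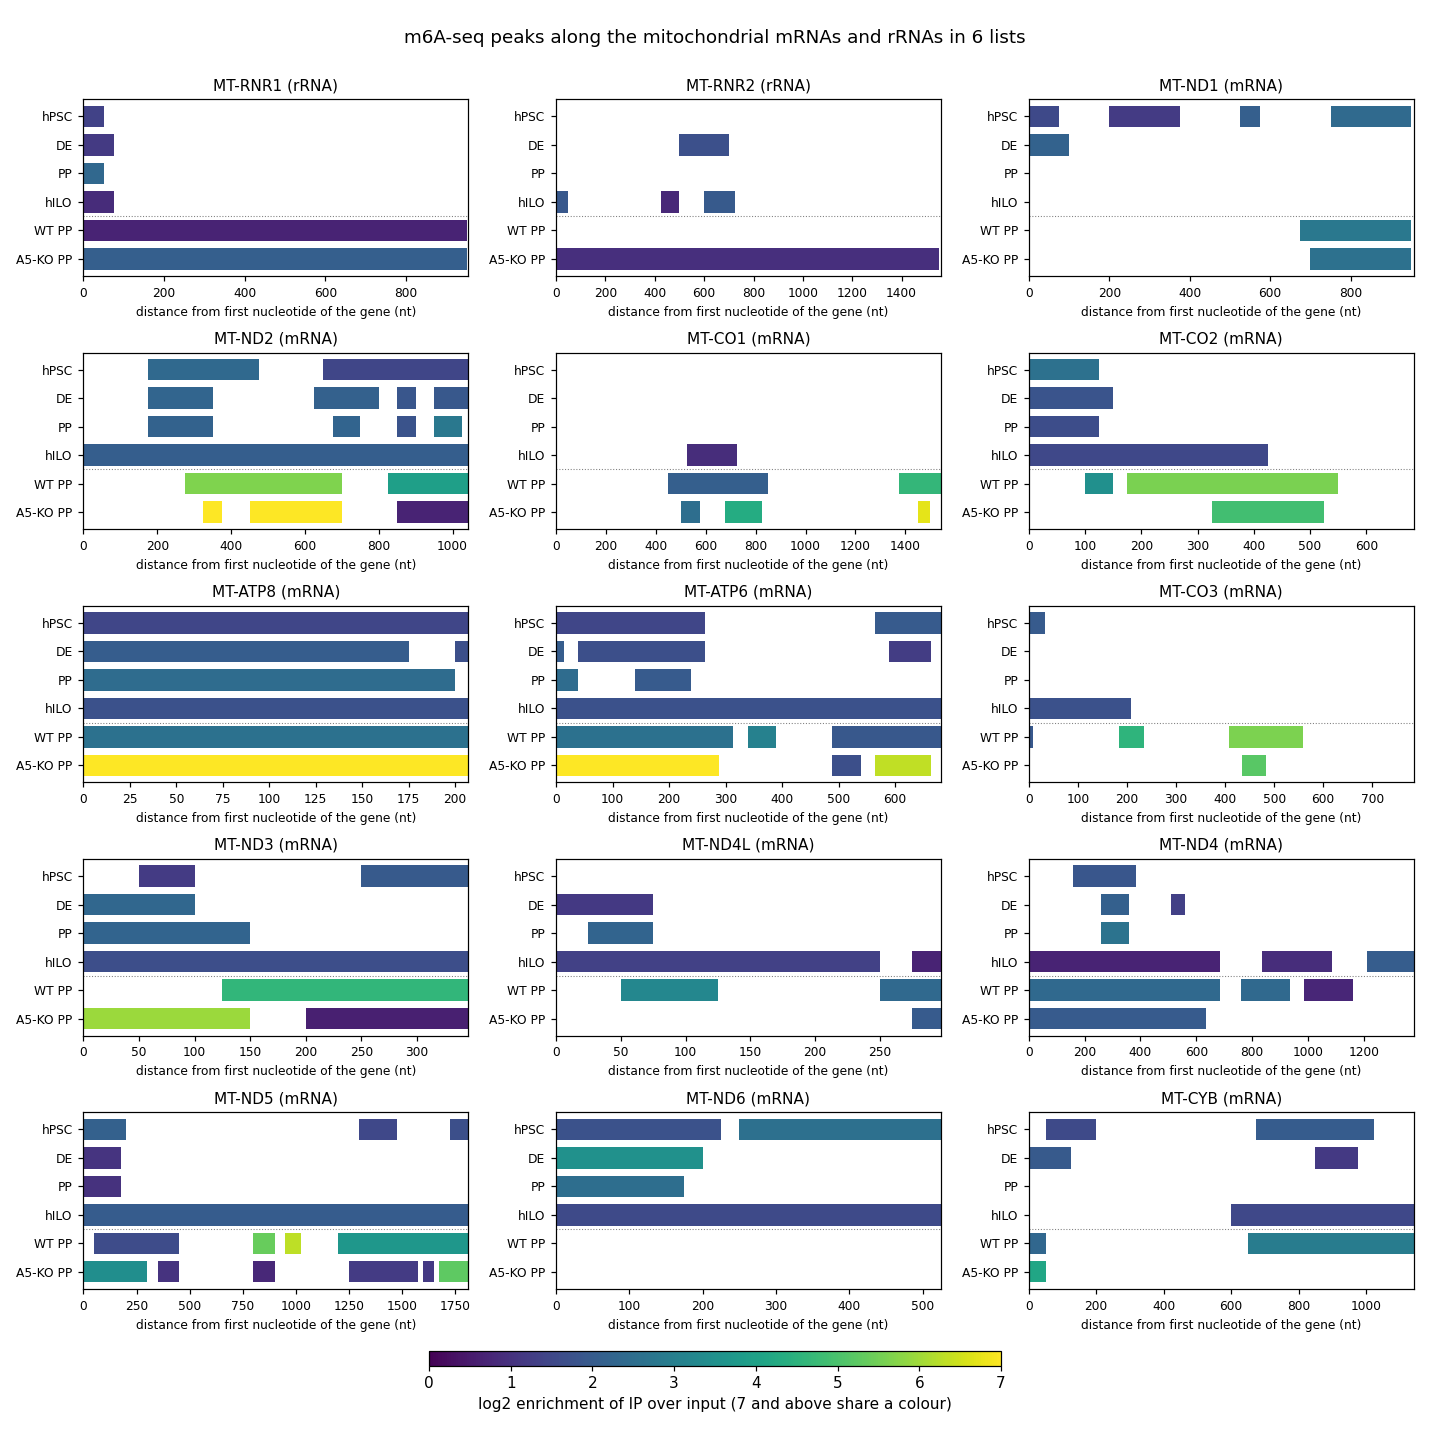
Peaks along the 13 mitochondrial mRNA genes and 2 rRNA genes in the 6 populations (rows of each panel), drawn from the first to the last nucleotide of the gene in its own direction. Colour gives the log2 enrichment of IP over input, bars that reach a panel's edge may go on in an overlapping gene, and the dotted line divides the batches. hILO peaks cover whole genes more often than those of the other lists, and the brightest bars lie in WT PP and A5-KO PP.

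MT-CYB, which encodes cytochrome b, the mitochondrially encoded subunit of complex III, had 8 peaks and none in PP. WT PP and A5-KO PP shared the 50 nt peak at its start, chrM:14747-14796, with 782 input and 816 IP reads in WT PP and 153 and 445 in A5-KO PP (log2 enrichment 2.32 and 4.14). DE had a peak from the same base with 2261 input and 6755 IP reads and a log2 enrichment of 1.95. The latter part of the gene held a peak in hPSC, DE, hILO and WT PP, with 69, 293, 388 and 130 input reads.

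The 3 genes for subunits of cytochrome c oxidase (complex IV), which hands the electrons to oxygen, held 16 peaks (15.2% of the mRNA peaks) on 26.4% of the mRNA length. MT-CO1 had no peak in hPSC, DE and PP, 1 in hILO, 2 for WT PP and 3 for A5-KO PP. MT-CO2 began with a peak at its first nucleotide in all 4 lists of the first batch, with 9 (hPSC), 1664 (DE), 14 (PP) and 165 (hILO) input reads. The corresponding log2 enrichments were 2.59, 1.83, 1.63 and 1.52. In the second batch the peaks of MT-CO2 lay further inside the gene, from nucleotide 101 in WT PP and from 326 in A5-KO PP. By position MT-CO3 had 2 peaks for WT PP and 1 for A5-KO PP, and all 3 were listed under the ID of its neighbours MT-ATP8 and MT-ATP6.

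The 2 ATP synthase genes, MT-ATP8 and MT-ATP6, lie on 1 mRNA with overlapping reading frames and share an ID in the lists. Peaks covered at least 87.9% of MT-ATP8 in every list. The peak from its first nucleotide had 118 input and 937 IP reads for hPSC, 54 and 157 for DE, 92 and 560 for PP, 166 and 495 for hILO, 4016 and 3525 for WT PP, and 0 and 43 for A5-KO PP. The log2 enrichment was 1.45, 2.04, 2.44, 1.73, 2.60 and 9.24, the last with no input read behind it. Within MT-ATP6, 100 nt at chrM:8666-8765 lay in a peak in all 6 lists, and in PP they were a peak of their own with 2307 input and 9170 IP reads.

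Among the rRNA genes, which encode the RNAs of the mitochondrial ribosome, MT-RNR1 (12S) had 1 peak in each list and always from its first nucleotide. In the first batch this peak covered 50 or 75 nt, with 249 input and 1680 IP reads for hPSC, 247 and 420 for DE, 23 and 157 for PP, and 306 and 499 for hILO. Its log2 enrichment was 1.39, 1.20, 2.35 and 0.85. In WT PP and A5-KO PP the peak covered 950 nt, 99.6% of the gene, with 0 input and 32 IP reads and with 85 and 78. MT-RNR2 (16S) had a peak in DE, 3 in hILO and 1 in A5-KO PP, and the last spread 3 input and 27 IP reads over 1550 nt. So few reads over so long a peak set the rRNA peaks of the second batch apart from those of the first.

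The 16 tRNA peaks all covered a whole gene, and 14 of the 22 tRNA genes had none. hILO had 8 of them, PP 3, hPSC and DE 2 each, WT PP 1 and A5-KO PP none, so that 15 of the 83 mitochondrial peaks of the first batch and 1 of the 49 of the second lay on a tRNA gene. MT-TP, the tRNA for proline and the last gene before the control region, had a peak in all 4 lists of the first batch. Its reads were 4 input and 96 IP for hPSC, 58 and 78 for DE, 76 and 296 for PP, and 35 and 215 for hILO, with log2 enrichments of 2.49, 1.42, 2.18 and 3.05. The tRNA for phenylalanine, MT-TF, which opens the heavy strand transcript ahead of MT-RNR1, had a peak in hPSC (88 input, 735 IP reads), PP (88 and 396) and hILO (141 and 317). Its log2 enrichment was 1.57, 2.08 and 1.36. MT-TE, the tRNA for glutamic acid between MT-ND6 and MT-CYB, had one in DE, PP and hILO, with 29, 71 and 356 input reads and log2 enrichments of 1.82, 1.24 and 1.23.

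MT-TI, MT-TQ, MT-TH and MT-TT, the tRNAs for isoleucine, glutamine, histidine and threonine, had peaks in hILO alone. That of MT-TQ had 2199 input and 6613 IP reads, 26.1% of all IP reads in mitochondrial peaks of hILO. MT-TW, the tRNA for tryptophan, had identical borders in hILO (938 input, 2082 IP reads, log2 enrichment 1.61) and WT PP (372 and 1696, 5.27). MT-TI and MT-TQ overlap by their last bases on opposite strands. The authors aligned reads with a strand setting, but whether reads were counted by strand was not given in the sources used here. The reads of MT-TI and MT-TQ thus cannot be told apart there. Whether the reads of tRNA peaks came from mature tRNAs or from uncut precursors was not tested.

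The strands differed between the batches. Of the 132 peaks, 119 lay on the plus strand and 13 on the minus strand, which encodes 9 of the 37 genes. All 13 came from the first batch, with 3 in hPSC, DE and PP each and 4 in hILO, and were on MT-ND6, MT-TE, MT-TQ and MT-TP. Among all other peaks of the 6 lists 48.2% to 48.9% lay on the minus strand. PP and WT PP, unedited cells at the same stage in different batches, had 3 and 0 such peaks. The batches differ in antibody, RNA selection and library kit together, and these cannot be told apart from each other.

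Peaks often met gene borders. A peak began at the first nucleotide of its gene in 51 of 132 cases and ended at the last in 35, and 20 peaks covered a gene from end to end. Of the 105 mRNA peaks, 27 began at the first nucleotide. The 4 mRNA genes covered whole by 1 peak were MT-ND2, MT-ND3, MT-ND5 and MT-ND6, all in hILO. The caller scans annotated exons in steps of 25 nt, which sets where a border can fall and leaves little room for borders inside a tRNA gene.

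Mitochondrial peaks held a small share of the reads. They took 0.273% of the hPSC IP reads in peaks, 0.274% for DE, 0.189% for PP, 0.0327% for hILO, 0.127% for WT PP and 0.0433% for A5-KO PP. Of the input reads in peaks the share was 0.252%, 0.229%, 0.181%, 0.0356%, 0.464% and 0.152%. hILO was lowest in both, although it had more mitochondrial peaks than the other lists of its batch. Single peaks carried much of these sums. The peak with the most IP reads held 35.5% of them in hPSC (MT-ND1), 77.9% in DE and 64.2% in PP (MT-ND2), 26.1% in hILO (MT-TQ), and 37.4% for WT PP and 57.8% for A5-KO PP (MT-ND4). Without it, the IP share was 0.176%, 0.0609%, 0.0678%, 0.0241%, 0.0798% and 0.0183% in the same order, an alternative chosen after seeing the data, and A5-KO PP was then the lowest. Without the peak of most input reads, likewise chosen after seeing the data, the input share was 0.172%, 0.0597%, 0.0627%, 0.0279%, 0.229% and 0.0173%, again with A5-KO PP below hILO.

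The reads listed for peaks varied along single RNAs. Among genes with 2 or more peaks that held input reads, the highest and lowest input reads per nt of a gene differed by a median of 32.3-fold over 7 mitochondrial genes in hPSC, 17.9-fold over 4 in DE, 43.6-fold over 3 in PP, 3.0-fold over 2 in hILO, 33.8-fold over 7 in WT PP and 8.43-fold over 4 in A5-KO PP. The medians of all other genes were 6.41, 6.23, 8.37, 7.23, 22.7 and 18.2, so mitochondrial genes varied more in 4 lists and less in hILO and A5-KO PP. The extremes were far apart: the MT-ND4L and MT-ND4 peaks of PP differed 1.02-fold, while input reads per nt differed 161-fold among the 4 MT-ND2 peaks of DE, 140-fold among the 4 MT-ND1 peaks of hPSC and 1480-fold among the 4 peaks under MT-ND4L and MT-ND4 in WT PP. Over all genes, peaks with identical borders in 2 lists had input reads with a Spearman correlation of 0.45 between hPSC and DE (2770 peaks), 0.19 between DE and PP (2082), 0.20 between PP and hILO (2118) and 0.32 for the genotype pair (3623). These are descriptions, and the points share libraries. The reads of a peak were for this reason not taken as the level of its transcript.

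**Figure D3:**
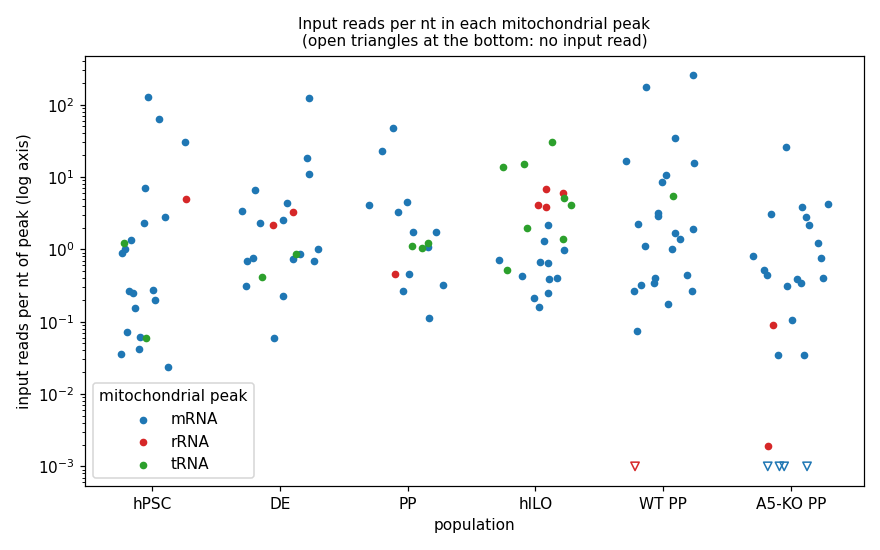
Input reads per nt of peak for each mitochondrial peak in the 6 populations, on a log axis, coloured by RNA class; open triangles at the bottom mark the 5 peaks with no input read. Within each population the values span 2 or more powers of 10, and in hILO the tRNA peaks lie mostly above the mRNA peaks.

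The enrichment of mitochondrial peaks lay within the range of the other peaks. Their median log2 enrichment was 1.81 for hPSC, 1.83 for DE, 2.20 for PP, 1.59 for hILO, 3.24 for WT PP and 3.01 for A5-KO PP. The medians of all other peaks were 1.74, 1.72, 1.64, 1.53, 3.65 and 4.31. Mitochondrial peaks were above the other peaks' median in 12 of 22 cases for hPSC, 12 of 21 for DE, 13 of 16 for PP, 13 of 24 for hILO, 11 of 25 for WT PP and 10 of 24 for A5-KO PP. By these medians A5-KO PP lay farthest from the other peaks of its list on the low side and PP on the high side, and both places changed when the deposited counts were used with the same centring. The mitochondrial median of PP was then 1.61 against 1.64 for the other peaks, that of WT PP 2.81 against 3.65 and that of A5-KO PP 3.69 against 4.31, so that WT PP was the farthest on the low side. In the second batch the summed reads ran below input: IP reads were 0.865 of input reads for WT PP and 0.866 for A5-KO PP, against 3.15 and 3.03 over the whole lists. MT-ND4 carried much of these sums. Without the peak of most input reads, chosen after seeing the data, the ratio was 1.45 for WT PP and 3.22 for A5-KO PP, and without that of most IP reads it was 0.829 and 3.22. In the first batch the ratio was 10.9, 2.92, 4.63 and 2.50, beside 10.0, 2.44, 4.43 and 2.72 over the lists.

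**Figure D4:**
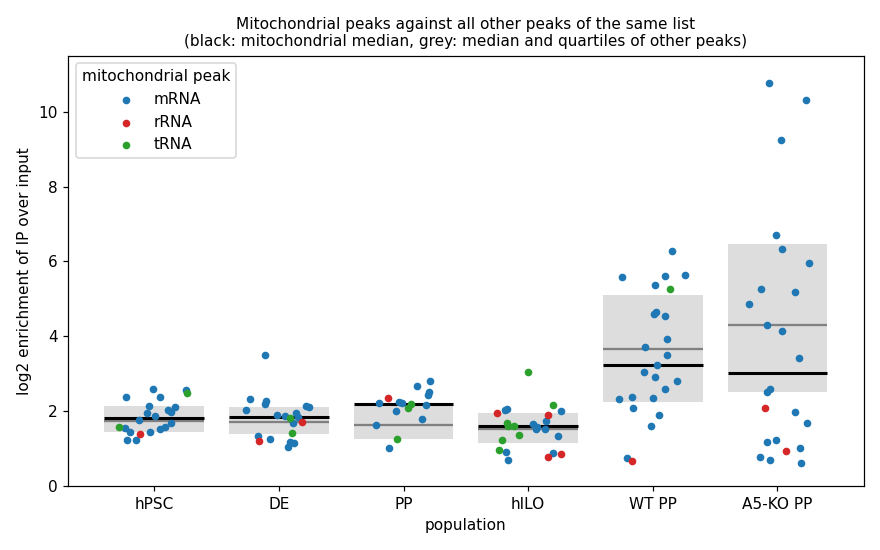
Log2 enrichment of IP over input for each mitochondrial peak (points, coloured by RNA class) in the 6 populations, with the mitochondrial median (black line) and the median and quartiles of all other peaks of the list (grey line and box). The mitochondrial median is 2.20 against 1.64 in PP and 3.01 against 4.31 in A5-KO PP, and the 2 lists of the second batch spread far wider than the first 4.

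Stages were compared in order, taking a peak as found in another list when more than 50% of it was covered there on the same strand. Of the DE peaks, 16 of 21 (76.2%, Wilson 95% interval 54.9% to 89.4%) were found in hPSC, beside 64.7% of the other DE peaks. Of the PP peaks, 15 of 16 (93.8%, 71.7% to 98.9%) were found in DE, beside 56.9%. MT-TF was the PP peak not found there. Where the overlap had to hold in both directions (reciprocal overlap), 42.9% of DE peaks were shared with hPSC and 81.2% of PP peaks with DE. This was not counted for the other peaks. Of the hILO peaks, only 4 of 24 (16.7%, 6.68% to 35.9%) were found in PP, beside 45.6%, whereas in the other direction all 16 PP peaks lay in hILO peaks, beside 60.5% of the other PP peaks. hILO peaks were longer, with a median of 146.5 nt and a longest of 1812 nt against 87.5 nt and 200 nt in PP, and with any overlap 50.0% of them met a PP peak. The 4 shared ones were MT-TP, MT-TE, MT-TF and MT-RNR1.

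The enrichment at shared peaks was compared at a log2 difference of at least 1. From hPSC to DE, 1 of 16 shared mitochondrial peaks was higher in DE, beside 4.45% of all shared peaks, and 2 were lower, beside 6.9%. The higher one was the start of MT-ND6 (1.75 to 3.50), and the lower ones were the start of MT-ND5 (2.14 to 1.04) and MT-TP (2.49 to 1.42). From DE to PP, 2 of 15 were higher, beside 7.35%, and none was lower, beside 8.21%. These were MT-RNR1 (1.20 to 2.35) and MT-ND4L (1.17 to 2.22). From PP to hILO none of 4 was higher, beside 4.11%, and MT-RNR1 (2.35 to 0.85) was lower, beside 13.2%. The median differences were 0.24, 0.09 and −0.37 on the log2 scale. From centred count ratios they were 0.11, −0.12 and 0.03, so the sign turned with the measure from DE to PP and from PP to hILO. With 4 to 16 peaks in a comparison, 1 or 2 past the threshold are counts near these background shares. The difference at MT-TP, with 4 input reads in hPSC, was −1.07, within its 95% counting error. From centred count ratios it was −1.93, outside that error.

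For WT PP and A5-KO PP, the comparison asks what the loss of the demethylase did to m6A peaks. Of the A5-KO PP peaks, 22 of 24 (91.7%, 74.2% to 97.7%) were found in WT PP, beside 46.8% of the other peaks, and 14 of 25 WT PP peaks (56.0%) were found in A5-KO PP, beside 50.0%. The 22 peaks fell in 16 WT PP peaks. With reciprocal overlap 13 of the 24 A5-KO PP peaks (54.2%) were shared, which was not counted for the other peaks. By at least 1, 10 of them were higher without ALKBH5, beside 38.0% of all shared peaks, and 5 were lower, beside 28.9%. The median difference was 0.10, beside 0.24 over all shared peaks, and the range ran from −4.59 to 6.64. From centred count ratios the median difference was 0.62. Both shares were near the background.

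Peaks of 1 gene differed in both directions between the genotypes. On MT-ND5, the last 137 nt were listed at 5.26 in A5-KO PP inside a WT PP peak at 3.70, and the start of the gene at 3.43 against 1.59. The same WT PP peaks also met lower A5-KO PP peaks, at 1.22 and 1.16 in the former and 1.02 in the latter. The peak chrM:13137-13236 of the same mRNA was at 0.78 against 5.37. On MT-CO1, all 3 A5-KO PP peaks were listed higher, at 4.31 and 2.51 against 2.09 and at 6.70 against 4.64. The largest differences rested on empty inputs. The peak over MT-ATP8 and MT-ATP6 was 6.64 higher and both MT-ND2 peaks inside chrM:4745-5169 were 5.12 and 4.66 higher in A5-KO PP, where they had no input read. In 5 of the 22 pairs 1 list had no input read, and where both lists had 50 or more input reads (11 pairs), 3 were higher, beside 22.7% of all such pairs, and 3 lower, beside 21.4%, with a median of −0.22. Taken from the counts, the difference kept its sign in 17 of 22 pairs. Among those that turned were MT-RNR1 (1.42 to −4.91), the MT-ND2 peak chrM:5320-5511 (−3.24 to 3.41) and the MT-ND3 peak chrM:10259-10404 (−3.99 to 0.42). MT-RNR1 and this MT-ND2 peak were among the pairs with no input read in 1 list. In A5-KO PP 10 of the 24 peaks had a p below 1e-05, the threshold that the study's methods give, beside 54.1% of all peaks of that list, and in WT PP 17 of 25, beside 54.3%.

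PP and WT PP are both wild-type PP from different batches. Of the PP peaks 7 of 16 (43.8%) were found in WT PP, beside 57.9% of the other PP peaks, and of the WT PP peaks 2 of 25 (8.0%) in PP, beside 22.4%. With any overlap these were 12 of 16 and 9 of 25, and with reciprocal overlap 0 in both directions. No interval was identical in both. Of the 15 intervals with identical borders in 2 or more lists, 2 crossed the batches, MT-TW in hILO and WT PP and the start of MT-ND3 in PP and A5-KO PP.

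DRACH was counted inside and outside the peaks of the same genes on the gene's strand. In the first batch the density of sites inside peaks was 0.937, 0.966, 0.881 and 0.953 of that outside in hPSC, DE, PP and hILO. It was 1.42 for WT PP and 1.44 for A5-KO PP. With mRNA genes only, the ratio of the first batch turned to above 1, at 1.02, 1.07, 1.04 and 1.17, and it was 1.41 and 1.37 in the second. Counted on the opposite strand of the same stretches, the ratios were 1.18, 0.961, 1.60 and 0.930 in the first batch and 1.02 and 1.33 in WT PP and A5-KO PP, and with mRNA genes only 1.08, 0.832, 1.20, 0.987, 0.914 and 0.987 from hPSC to A5-KO PP. GGAC, whose matches lie inside DRACH unless G follows, had ratios of 0.61, 0.705, 0.622, 0.597, 1.05 and 1.27. With mRNA genes only the GGAC ratios were 0.706, 0.79, 0.838, 0.772, 0.926 and 0.746, so those of the second batch turned to below 1. Among the peaks themselves, 110 of 132 (83.3%) held a DRACH and 31 (23.5%) a GGAC, while windows of the same lengths along the mitochondrial genes held one in 90.1% and 31.9%. A match of letters is no methylated site.

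Copies of mitochondrial DNA in the nuclear genome share sequence with these peaks. The longest near-identical copy, chr1:629081-634924, matched chrM:3911-9755 with 98.5% identity and exact runs of up to 279 nt, and a copy on chromosome 5, chr5:134923309-134928527, matched chrM:10269-15487 with 94.1%. Of the 132 peaks 41 had bases inside an exact nuclear match of at least 100 nt, on MT-ND1, MT-TI, MT-TQ, MT-ND2, MT-CO1, MT-CO2, MT-ATP8, MT-ATP6, MT-CO3 and MT-RNR1. The aligner kept 1 place per read, so counts of these peaks are uncertain. MT-ND3, MT-TT and MT-TP had no exact match of 50 nt or more.

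The lists also held peaks on annotated nuclear copies: hPSC 8, DE 11, PP 11, hILO 20, WT PP 6 and A5-KO PP 3. They had 27402, 23297, 26519, 59700, 4180 and 385 IP reads, beside 217887, 84325, 58465, 25330, 76432 and 16717 in the peaks of the mitochondrial genome itself. In hILO the copies thus had more IP reads than the mitochondrial genome. The copies with the most IP reads were MTND6P4 in hILO (27682), PP (20669) and DE (17123), MTND5P11 in hPSC (19564), the joined entry of MTCO3P12, MTATP8P1 and MTATP6P1 in WT PP (1862), and that of MTND4LP30 and MTND4P12 in A5-KO PP (170). MTND2P28, the copy of MT-ND2 on chromosome 1, was among the first 3 in every list, with 5157, 2955, 4945, 15795, 1093 and 100 IP reads from hPSC to A5-KO PP. The part of misplaced reads in the values of hILO was not tested.

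Of 36 nuclear genes whose proteins transcribe, cut, stabilise or modify mitochondrial RNA, 32 had a peak for hPSC, 30 each for DE, PP, hILO and WT PP, and 31 for A5-KO PP. Of all protein-coding genes 60.2%, 57.0%, 52.2%, 57.7%, 62.8% and 69.7% had a peak, and the counts are set side by side without a test. The genes with the most IP reads were METTL15, a methyltransferase of the 12S rRNA (31076), RPUSD4 and SLIRP in hPSC, RPUSD4 (7543), MRM2 and SLIRP in DE, and MRM2 (7289), NSUN2 and SLIRP in PP. In hILO they were NSUN4 (14164), SLIRP and FASTKD5. TFB1M, which dimethylates adenosines of the 12S rRNA, led both lists of the second batch, WT PP (19700) and A5-KO PP (11890), followed by TRMT61B and NSUN3 in the former and TRMT10C and TBRG4 in the latter. SLIRP, which binds mitochondrial mRNAs together with LRPPRC, was among the first 3 in all 4 lists of the first batch and in neither of the second.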

How the data were processed

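m6A-seq had been done on 24 libraries, 2 IP and 2 input libraries for each of 6 populations, grouped by their labels. The authors used fastp for trimming, HISAT2 for alignment to GRCh38 with a single placement of each read, and exomePeak2 for peaks on the pooled libraries of a population. For each peak the authors deposited pooled read counts of IP and input, a log2 enrichment corrected for GC content and a p-value with its adjusted form, which was not used. It was not given in the sources used here if pooled counts were summed or averaged. If averaged, counting errors are overstated, and PCR copies act the other way. Per the labels, WT PP and A5-KO PP were made with another antibody, RNA selection and kit than the other 4 populations.

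All peaks on chromosome M were kept. Gene IDs were matched to GENCODE release 44, and a peak was assigned by position to the same-strand gene that held most of its bases. Sharing needed more than 50% of a peak covered on the same strand. Differences of log2 enrichment were called at 1 or more, and the counting error came from both counts with 0.5 added. That error does not cover the authors' correction for GC content. Log2 ratios of counts used a pseudocount of 1 and were centred on the list's median. Shares have Wilson 95% intervals. DRACH and GGAC were counted in the reference, and nuclear copies were found with BLAST 2.17.0 as exact runs of at least 50 or 100 nt. Analyses used Python 3.11.15, pandas 2.3.3 and scipy 1.17.1, and the overlap and difference steps were tested on simulated data.

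The text names all mitochondrial genes with a peak, and for the factors of mitochondrial RNA and for the nuclear copies the 3 entries with the most IP reads in a list. Members and lists were chosen with earlier results of these data known. Values per library were not used here, so no test across populations was made.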

Additional observations from a re-analysis of the deposited data

How the results depend on the processing

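Of 112 values under alternatives, 59 stayed within 1.5 times for counts, or within counting error, and 53 moved. Some that stayed within counting error changed direction: the median difference at shared peaks went from 0.09 to −0.12 for DE to PP and from −0.37 to 0.03 for PP to hILO with count ratios, and from 0.10 to −0.22 for the genotype pair where both lists had 50 or more input reads. Count ratios gave 0.62 for that pair. Requiring an IP to input ratio of at least 3 left 13 mitochondrial peaks in hPSC and 12 in hILO, and p below 1e-05 left 10 in A5-KO PP. With p below 1e-05 the IP share on the mitochondrial genome was 0.284% for hPSC, 0.286% for DE, 0.204% for PP, 0.0315% for hILO and 0.131% for WT PP, and the input share was 0.263%, 0.239%, 0.195%, 0.0336%, 0.503% and, for A5-KO PP, 0.169%. Without the peak of most IP reads (chosen after seeing the data) the IP share was 0.176%, 0.0609%, 0.0678%, 0.0241%, 0.0798% and 0.0183% from hPSC to A5-KO PP, and without that of most input reads the input share was 0.172%, 0.0597%, 0.0627%, 0.0279%, 0.229% and 0.0173%. The ratio of summed IP to input reads was 10.2, 2.48, 4.79, 2.36, 0.829 and 3.22 without the former peak, and without the latter it was the same but for WT PP, at 1.45. From count ratios with a pseudocount of 1 the median log2 enrichment was 1.61 for PP, 2.81 for WT PP and 3.69 for A5-KO PP, with a pseudocount of 10 it was 1.67 for PP and 3.88 for A5-KO PP, and with at least 50 input reads 2.30 in A5-KO PP. With GGAC in place of DRACH the density ratio was 0.61 for hPSC, 0.705 for DE, 0.622 for PP, 0.597 for hILO and 1.05 for WT PP, and with mRNA genes only the DRACH ratio crossed 1 in the first batch, at 1.02, 1.07, 1.04 and, for hILO, 1.17. With reciprocal overlap 42.9% of DE peaks were shared with hPSC and 54.2% of A5-KO PP peaks with WT PP, and with any overlap 50.0% of hILO peaks were shared with PP. Where not set by the construction of the alternative, the cause was not tested.

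No paired analysis was possible because each population has 1 pooled value for a peak. The planned count model, its replicate block, the left-out replicates, the other size factors and the filter on low counts need counts per library and were not run. Depth limits single peaks most in A5-KO PP, where 12 of 24 had at least 50 input reads.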
